A study of Mus musculus with 9 samples.

Results

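The solute carrier (Slc) genes encode membrane transporters, and AGO-bound reads were recovered over 230 of them, out of 13770 genes with a region. The members were all protein-coding genes whose name starts with Slc and a number, except 9 that were set aside: Slc7a1, Slc10a1, Slc24a2, Slc25a51, Slc27a5, Slc35a4, Slc39a14, Slc40a1 and Slc52a2. They held 1595 of the 92645 regions in which the authors found reads. Reads were summed per gene, once over all regions and once without the regions that hold a seed match of miR-122-5p. A few names of the series are not transporters: Slc9a3r1 and Slc9a3r2 are scaffold proteins, and Slc7a6os and Slc4a1ap are named after a neighbour or a binding partner.

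The study compared Argonaute (AGO) CLIP-seq of liver from miR-122 knockout (KO) mice and from floxed littermate controls (WT in the labels), all 6 weeks old. In this assay RNA is fixed to AGO by ultraviolet light and pulled down with it, so a read count measures how much AGO-bound RNA a region gave. The 4 KO libraries came from 1 female and 3 males, and the 5 control libraries from 3 females and 2 males, each from a separate mouse. The labels name neither the Cre driver nor the allele behind the loss of miR-122, and the floxed controls were the only controls.

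Solute carriers move sugars, amino acids, ions, metals, vitamins, bile acids and drugs across the plasma membrane and organelle membranes. In the liver they take up nutrients from the blood and link the mitochondrial and cytosolic steps of the urea cycle, gluconeogenesis and fatty acid oxidation. miR-122 is the most abundant microRNA of hepatocytes. A microRNA guides AGO to an RNA by pairing its seed, bases 2 to 8, with a match in the target. A match is classed from longest to shortest as 8mer, 7mer-m8, 7mer-A1 or 6mer.

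Several regions described here lie on matches of other microRNA families, whose mature sequences are shown because named genes such as Slc25a13 and Slc38a4 held both kinds of region. Sequences are from RefSeq (GRCm38.p6), 5′ to 3′, with the seed in capitals. The let-7 sequences share 1 seed and the miR-27 sequences share another.
mmu-let-7a-5p: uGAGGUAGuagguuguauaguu
mmu-let-7c-5p: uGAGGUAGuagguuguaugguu
mmu-let-7g-5p: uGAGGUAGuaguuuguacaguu
mmu-miR-27a-3p: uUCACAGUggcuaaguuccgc
mmu-miR-27b-3p: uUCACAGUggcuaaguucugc
mmu-miR-30a-5p: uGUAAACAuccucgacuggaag
mmu-miR-148a-3p: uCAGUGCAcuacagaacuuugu
mmu-miR-194-5p: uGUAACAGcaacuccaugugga

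The targeted locus was checked first. The region over Mir122 held 45.0, 2.63, 31.4 and 29.7 CPM (reads relative to the library's size, scaled with TMM factors) in KO libraries 1 to 4, against 658, 631, 345, 346 and 491 CPM in control libraries 1 to 5, an 18.2-fold lower mean (two-sided exact permutation p = 0.00794, the smallest that splits of 4 and 5 libraries allow). Every KO library lay below every control library. The libraries held 612479 to 1070610 reads in the KO group and 445912 to 1170130 in the control group. A floor of 3 reads corresponded to 2.49 to 7.25 CPM in 1 library, and to 0.757 CPM over the KO group and 0.723 CPM over the control group; these floors cover counting error only. Hepatocyte markers, 8 of 8 with reads, summed to 14076 to 17398 CPM in KO libraries and 23280 to 33041 CPM in control libraries, with 6 lower and 2 higher. Neuron markers, 12 in all, summed to 1761, 1994, 2269 and 9766 CPM in KO libraries 1 to 4 and to 43.9 to 58.0 CPM in control libraries, where Celf4, Gria2, Rbfox1, Stmn2 and Syn1 were at 0. The 5 astrocyte and oligodendrocyte markers summed to 142 to 793 CPM in KO libraries and 2.42 to 6.10 CPM in control libraries, with Gfap, Mbp and Mobp at 0 in the controls. Stellate cell markers summed to 1090 to 1440 CPM in KO libraries and 445 to 541 CPM in control libraries. In bulk tissue, fewer cells of a type and less RNA per cell cannot be told apart, and the part of these markers in the results below was not tested. CPM of a CLIP region is not corrected for length, so genes are not ranked against each other as expression.

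The Slc genes as a group lost most reads of their miR-122 regions, while their total share of the libraries differed by less than the spread between control libraries. Their reads were 1.54% ± 0.0817 of all reads in KO libraries (SD, n = 4) and 1.64% ± 0.126 in control libraries (SD, n = 5). Within them, regions with a miR-122 match took 3.07%, 3.44%, 3.14% and 4.47% of reads in KO libraries 1 to 4, against 18.4%, 16.6%, 18.8%, 18.6% and 18.1% in control libraries 1 to 5. The KO and control ranges did not overlap, and the means were 3.53% ± 0.649 and 18.1% ± 0.893. Over all genes the corresponding shares were 3.55% in KO and 19.5% in control libraries.

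Reads of the Slc genes also lay more in 3′ UTRs and less in coding sequence in KO libraries. The 3′ UTR regions held 61.7%, 61.6%, 62.2% and 65.2% of Slc reads in KO libraries, against 50.4%, 49.9%, 49.6%, 53.4% and 50.4% in control libraries. Coding regions held 31.6%, 31.1%, 30.3% and 26.4% in KO libraries, against 38.4%, 39.2%, 38.8%, 36.1% and 38.3% in control libraries. Neither pair of ranges overlapped. The same held outside the miR-122 regions, where the 3′ UTR share was 63.0% ± 1.57 in KO and 54.3% ± 1.59 in control libraries. All genes moved the same way, with 35.0% of all reads in 3′ UTR regions in KO and 28.2% in control libraries, and 27.0% and 38.3% in coding regions.

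**Figure D1:**
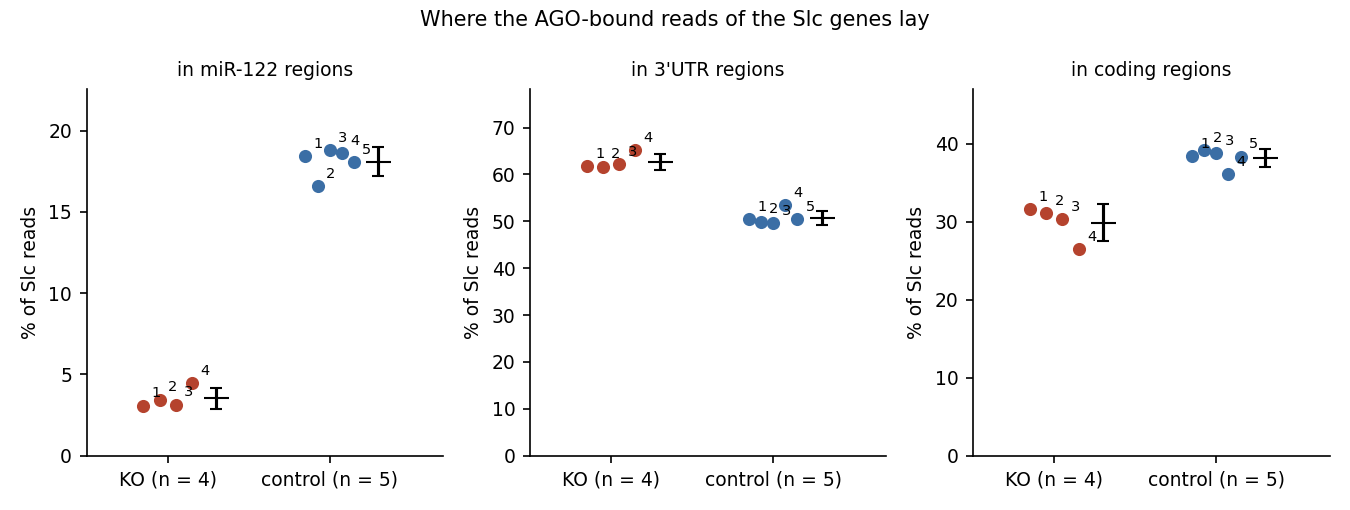
Share of the AGO-bound reads of the Slc genes, in percent, that lay in regions with a miR-122 match (left), in 3′ UTR regions (middle) and in coding regions (right). Each point is 1 library, with the mean and SD of the 4 KO and 5 control libraries; the miR-122 share is 3.53% in KO and 18.1% in control libraries, and in no panel do the groups overlap.

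Of the 230 genes, 162 had enough reads for edgeR's quasi-likelihood test, and the other 68 held 1.86% of the Slc reads. At an adjusted p under 0.05, 37 genes were lower in KO (22.8%, against 23.3% of all 8843 genes tested) and 30 were higher (18.5%, against 21.9%); 95 did not pass. The median log2 fold, KO over control, was -0.08 over the Slc genes and 0.07 over all genes. Scaled with TMM factors from the genes without a miR-122 region, which lowered the median of all genes by 0.32, the split was 59 lower and 18 higher. The shares of all genes under this scaling were not counted. Thus the count in each direction follows the scaling, and folds near 0 have no settled sign. Of the higher genes 13 had under 10 reads in every control library, and of the lower genes 7 had under 10 in every KO library, so these were tested through the group in which they were high. KO values lay wholly below control values for 34 of the genes and wholly above for 26; over all genes tested, 20.8% and 19.4% did so.

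A gene with a miR-122 region was lower more often than one without, among the Slc genes as among all genes. Of the 76 tested Slc genes with such a region, 29 were lower and 7 higher, with a median log2 fold of -0.45; over all genes with one, 37.1% were lower and 13.5% higher, with a median of -0.34. Of the 86 without, 8 were lower and 23 higher, with a median of 0.26; over all genes without one, 11.0% were lower and 29.4% higher, with a median of 0.36.

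The miR-122 regions numbered 153, in 90 of the genes. They lay in introns (52), 3′ UTRs (49), coding sequence (32), downstream of the gene (12) and 5′ UTRs (4), with the few others in repeats. They held 1973 reads in the KO group and 12728 in the control group; 35 had no KO read and 5 no control read. Of the 43 with enough reads to test, 38 were lower in KO (88.4%, against 89.8% of all 2637 tested regions with a match) and 1 was higher (against 1.29%). Their median log2 fold was -3.64, against -3.74 over all regions with a match. By match, 10 of 10 regions with an 8mer were lower (median -4.33), against 96.7% over all genes (-4.68). With a 7mer-m8, 7 of 10 were lower (-3.07), against 93.7% (-3.92). With a 7mer-A1, 12 of 12 were lower (-3.27), against 92.6% (-3.82), and with a 6mer 9 of 11 (-3.64), against 81.7% (-3.00). Of the 38 lower regions, 28 had under 10 reads in every KO library and so passed the filter through their control reads, as the one higher region did through its KO reads. All 10 tested intronic regions were lower (95.7% over all genes), as were 11 of 12 coding ones (93.6%) and 16 of 20 in 3′ UTRs (83.3%). Of the 11 regions whose seed match was conserved (phyloP of at least 1) 10 were lower, and of the 32 with a lower score 28 were; over all genes 90.8% and 89.0% were, so these counts lay near the background.

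The region with the smallest p lay in an intron of Slc30a9, a mitochondrial zinc transporter (mm10, chr5:67324157-67324354). This region, with an 8mer for miR-122 and a let-7 match, held 10.7, 1.78, 4.97 and 5.86 CPM in KO libraries, against 279, 239, 228, 256 and 253 CPM in control libraries. The groups were far apart, and the fold was -5.30 on the log2 scale (SE 0.36; adjusted p = 1.85e-08, edgeR's quasi-likelihood test). Slc17a3, a transporter of urate and other organic anions, had an 8mer in coding sequence (chr13:23855886-23855955) with 9.80, 2.68, 2.49 and 3.91 CPM in KO against 101, 74.9, 118, 147 and 174 CPM in control libraries (log2 -4.65, SE 0.42, adjusted p = 2.23e-07). The highest control level among the miR-122 regions belonged to Slc25a47, a mitochondrial carrier found mainly in liver. Its coding region with a 6mer (chr12:108855538-108855607) held 13.4, 31.2, 14.9 and 13.7 CPM in KO against 375, 387, 352, 209 and 157 CPM in control libraries (log2 -3.64, SE 0.37, adjusted p = 7.17e-07). All KO libraries lay below all control libraries in each of these regions.

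The next regions by p belonged to transporters of several kinds. Slc38a4, which takes up neutral amino acids, had both an intronic 7mer-m8 (chr15:97018382-97018451; 0.711 ± 0.929 CPM in KO, 64.4 ± 22.5 CPM in control, log2 -6.72) and a 7mer-A1 in the 3′ UTR (chr15:96996623-96996761; 29.8 ± 11.6 and 272 ± 72.0 CPM, log2 -3.22). The copper importer Slc31a1 had a 7mer-m8 in coding sequence (chr4:62385607-62385676) at 11.9 ± 2.34 CPM in KO and 117 ± 23.5 CPM in control libraries (log2 -3.12). In Slc25a20, the carnitine-acylcarnitine carrier that brings fatty acids into mitochondria, a coding 7mer-A1 (chr9:108681991-108682060) gave 10.8 ± 4.16 CPM in KO and 151 ± 79.6 CPM in control libraries (log2 -3.41). Slc8b1, the mitochondrial sodium-calcium exchanger, had a 6mer in its 3′ UTR (chr5:120533863-120533932; 13.1 ± 2.65 and 113 ± 29.5 CPM, log2 -2.82). Slc25a34, another mitochondrial carrier, had an 8mer in its 3′ UTR (chr4:141618843-141618912; 3.20 ± 1.81 and 50.3 ± 2.82 CPM, log2 -4.02). Slc10a5, of the bile acid transporter family, had a coding 7mer-A1 (chr3:10335402-10335471; 9.02 ± 4.54 and 89.0 ± 37.2 CPM, log2 -2.94). The largest adjusted p of this group was 1.25e-06 (edgeR's quasi-likelihood test; SD over n = 4 KO and 5 control libraries).

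The 5 tested miR-122 regions that were not lower are named here after their values were seen. Slc22a17, a lipocalin-2 receptor, had a 6mer in its 3′ UTR with 24.9, 41.0, 50.6 and 186 CPM in KO libraries and no read in any control library, at least 104-fold higher. It was tested only because of its KO reads. The regions of Slc1a2 (log2 -1.10 and -0.997, adjusted p = 0.0508 and 0.0855), Slc7a2 (-0.45, adjusted p = 0.272) and Slc38a2 (0.15, adjusted p = 0.753) did not pass edgeR's quasi-likelihood test. That of Slc7a2, which imports arginine and lysine, also carried a let-7 match and held 76.0 ± 30.6 CPM in KO and 101 ± 25.7 CPM in control libraries.

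**Figure D2:**
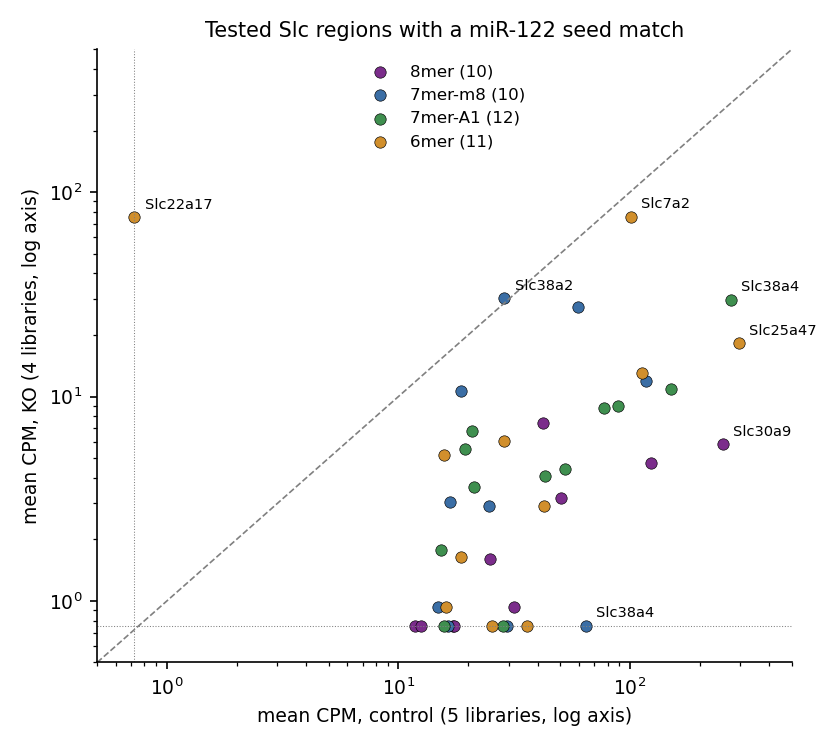
Mean AGO-bound reads (CPM, log axes) of the 43 tested miR-122 regions of Slc genes, KO libraries on the vertical and control libraries on the horizontal axis, coloured by the class of the match. The dashed line marks equality and the dotted lines the floor of 3 reads over each group, at which lower means are drawn; 38 regions lie below the line and past the test, and the Slc22a17 region, with no control read, stands above it.

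With the miR-122 regions left out of the sums, 154 Slc genes could be tested. Then 31 were lower in KO (20.1%, against 16.8% of all 8430 genes) and 20 higher (13.0%, against 17.1%), with a median log2 fold of -0.08 against 0.04 over all genes. Of the 37 genes lower over all regions, 24 were lower in both tests, 8 no longer passed and 5 had too few reads left. Another 7 genes passed as lower only without the miR-122 regions. Of these, 5 have no miR-122 region, so their counts were the same in both tests. The same holds for all 10 genes that were higher over all regions and then no longer passed. Leaving the miR-122 regions out lowered the fold of genes that have none by a median of 0.26, since the scaling factors changed with them, so differences of that size between both tests are not changes at the gene. Without control library 4, the deepest of all, 19 genes were lower in this test.

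Slc30a9 showed the widest gap between both sums. Its total was 74.0, 50.9, 44.8 and 107 CPM in KO libraries, against 332, 266, 307, 336 and 347 CPM in control libraries, with no overlap (log2 -2.23, SE 0.26, adjusted p = 3.74e-05 by edgeR's quasi-likelihood test). Of its control reads 92.0% lay in miR-122 regions. Without them it held 63.0 ± 28.1 CPM in KO and 29.7 ± 12.3 CPM in control libraries (log2 0.94, adjusted p = 0.0733), and no fall was detected there. Over exonic regions alone the gene did not pass (adjusted p = 0.275), and over 3′ UTR regions alone its log2 fold was 0.76. The vitamin C transporter Slc23a1 behaved alike: 11.9 ± 4.22 CPM in KO against 42.3 ± 5.69 CPM in control libraries over all regions (log2 -1.74, adjusted p = 0.000673), and 11.4 ± 3.77 against 13.4 ± 5.45 CPM without the miR-122 region (log2 0.01, adjusted p = 0.992). For Slc25a34, 99.6% of control reads lay in miR-122 regions and too few were left to test.

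Other genes of this kind were Slc8b1 (log2 -1.26 over all regions and -0.60 without, adjusted p = 6.93e-05 and 0.0616), the magnesium transporter Slc41a1 (-1.33 and -0.08, adjusted p = 0.0134 and 0.921) and Slc16a6, a ketone body exporter in zebrafish (-0.89 and -0.03, adjusted p = 0.0123 and 0.959; edgeR's quasi-likelihood test). The call of Slc41a1 over all regions was lost without control library 5 (adjusted p = 0.123), and that of Slc16a6 without control library 4 (adjusted p = 0.0652). Slc44a1, a choline transporter, went the other way, with 38.1 ± 7.75 CPM in KO and 20.2 ± 2.59 CPM in control libraries outside its miR-122 region (log2 0.92, adjusted p = 0.0193) and 38.5 ± 8.70 and 28.6 ± 3.14 CPM over all regions (log2 0.38, adjusted p = 0.223). The creatine transporter Slc6a8 had log2 folds of 1.47 without and 0.43 with its miR-122 region (adjusted p = 0.0367 and 0.31). Without KO library 1 or control library 5 the value of Slc44a1 outside its miR-122 region did not pass, and that of Slc6a8 failed without any 1 of 5 libraries (KO 2 and 3, control 1, 4 and 5; adjusted p from 0.0587 to 0.136).

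**Figure D3:**
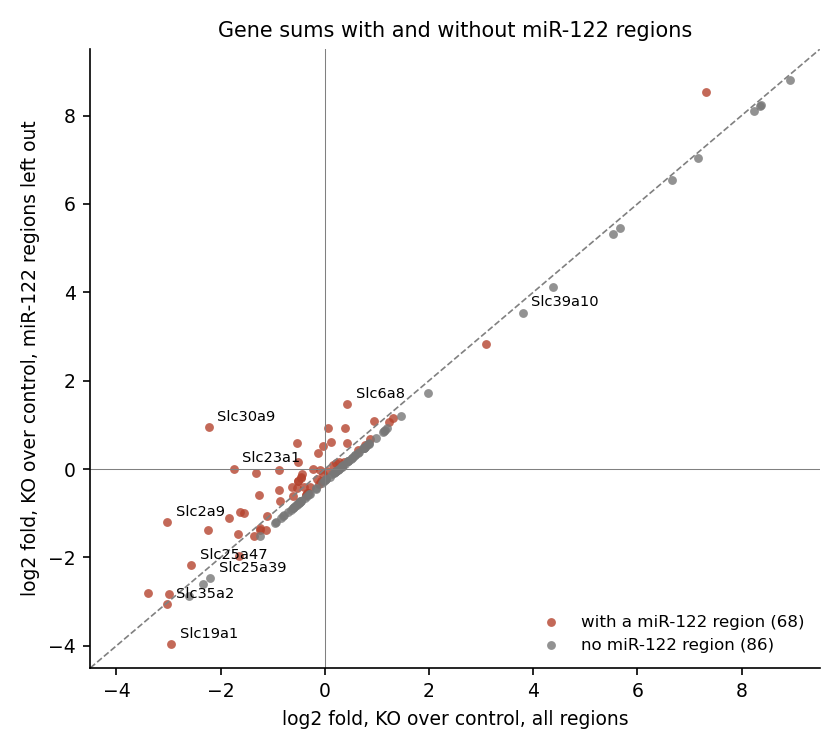
Log2 fold (KO over control) of the 154 Slc genes in both tests, over all regions on the horizontal axis and without the miR-122 regions on the vertical axis; 68 genes with a miR-122 region and 86 without are drawn in different colours, and the dashed line marks equality. Slc30a9 lies at -2.23 and 0.94, far above the line, while most genes without a miR-122 region lie slightly below it.

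Some Slc genes were lower without any miR-122 region. Slc25a39, which is needed for the import of glutathione into mitochondria, held 47.2, 25.9, 19.1 and 19.5 CPM in KO libraries, against 143, 152, 145, 153 and 117 CPM in control libraries (log2 -2.20, SE 0.23, adjusted p = 2.22e-05). The groups did not overlap, but over 3′ UTR regions alone the gene did not pass (adjusted p = 0.792). Slc25a3, the mitochondrial phosphate carrier, held 98.9, 109, 104 and 104 CPM in KO libraries, against 261, 278, 207, 253 and 245 CPM in control libraries (log2 -1.25, SE 0.15, adjusted p = 5.68e-05). Slc3a1, the heavy subunit of the cystine transporter, held 16.9, 7.14, 8.29 and 19.5 CPM in KO libraries, against 62.7, 104, 80.1, 53.3 and 104 CPM in control libraries (log2 -2.61, SE 0.36, adjusted p = 0.000132). For both, every KO library again lay below every control library. Slc10a2, the bile acid transporter known from the ileum (log2 -2.33, adjusted p = 0.000329), and Slc37a4, which moves glucose-6-phosphate into the endoplasmic reticulum (log2 -0.97, adjusted p = 0.0159), were also lower. The call of Slc37a4 was lost without control library 4 (adjusted p = 0.0987).

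Regions without a miR-122 match were tested in 295 cases. Of these 55 were lower (18.6%, against 16.3% of all 14545) and 46 higher (15.6%, against 20.4%), with a median log2 fold of -0.01 against 0.22. In 3′ UTRs, 20 were lower and 37 higher of 164, and in coding sequence 29 were lower and 6 higher of 108; over all genes 9.95% and 30.3% of 3′ UTR regions and 23.5% and 9.20% of coding regions were lower and higher. Of the 55 lower regions, 8 carried a match of the class that the deposited names mark "-B" of miR-122-5p, 3 matched miR-122-3p, the other strand of the same hairpin, and 2 of the others lay within 100 bases of a miR-122 region. The remaining 42, in 26 genes, had none of these features in the deposited annotation. Over all 338 Slc regions tested, 93 were lower (27.5%, against 27.6% of all regions) and 47 higher (13.9%, against 17.5%). With upper-quartile scaling the split was 81 and 66, and without control library 4 it was 56 and 29. The shares of all regions under these settings were not counted. At the main settings, 54 of the 93 lower regions had under 10 reads in every KO library, 28 of them with a miR-122 match. Of the 47 higher ones, 14 had under 10 in every control library, 1 of them with a match. These regions were tested through the group in which they were high.

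Of the 10 tested "-B" regions, 8 were lower and 1 higher, with a median of -3.83; over all genes 85.4% were lower and 2.38% higher, with a median of -3.51. In the zinc exporter Slc30a4, such a coding region (chr2:122702177-122702246) held 7.13, 0.892, 2.49 and 0 CPM in KO libraries, against 99.8, 106, 145, 86.6 and 84.9 CPM in control libraries (log2 -4.86, SE 0.43, adjusted p = 1.53e-07). The whole gene held 68.4 ± 5.21 CPM in KO and 220.0 ± 24.0 CPM in control libraries (log2 -1.66, adjusted p = 1.21e-05), was lower without the miR-122 regions (-1.47), and had a log2 fold of 0.30 with the "-B" regions left out too, a setting chosen after seeing the data. A coding "-B" region of Slc25a12, the aspartate-glutamate carrier aralar, was named after its values were seen (chr2:71343899-71344037, also with a miR-148 match). It held 1.72 ± 1.54 CPM in KO and 89.9 ± 24.0 CPM in control libraries (log2 -5.18, adjusted p = 1.22e-07, edgeR's quasi-likelihood test). The "-B" regions of Slc30a4 and Slc25a12 had under 10 reads in every KO library and were tested through their control reads.

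Lower regions on miR-122-3p matches were found in Slc25a3, Slc25a13 and Slc35a2, the UDP-galactose transporter of the Golgi. All had under 10 reads in every KO library and so were tested through their control reads. They were the 3 tested Slc regions with a 7mer or 8mer of miR-122-3p and no miR-122-5p match. Over all genes 72.1% of 104 tested regions with one were lower, with a median log2 fold of -2.51. That of Slc25a3 (chr10:91119607-91119676, 3′ UTR) held 8.02, 7.14, 1.66 and 1.95 CPM in KO libraries, against 88.4, 84.6, 74.0, 72.5 and 76.1 CPM in control libraries (log2 -3.81, SE 0.38, adjusted p = 5.15e-07). That of Slc35a2 (chrX:7893644-7893713, 3′ UTR) held 1 read's worth, 0.891 CPM, in KO library 1 and none in the others, against 25.7, 16.9, 32.2, 33.3 and 33.7 CPM in control libraries (log2 -6.25, SE 0.66, adjusted p = 1.02e-06). Slc35a2 as a gene held 8.14 ± 2.44 CPM in KO and 66.4 ± 10.8 CPM in control libraries (log2 -3.02, SE 0.28, adjusted p = 8.06e-06), with 24.3% of its control reads in a miR-122 region.

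Of the lower regions with no such feature, the following were chosen after their values were seen. Those given for Slc23a2, Slc25a44 and Slc25a39 had under 10 reads in every KO library and were tested through their control reads. A region in the 5′ UTR of Slc23a2, a vitamin C transporter (chr2:132101625-132101694, with a miR-29 match), held 2.67, 2.68, 1.66 and 0 CPM in KO libraries, against 74.1, 91.8, 54.0, 56.6 and 52.7 CPM in control libraries (log2 -4.76, SE 0.42, adjusted p = 1.52e-07). A coding region of Slc25a47 without a match (chr12:108856137-108856206) held 6.46 ± 4.05 CPM in KO and 156 ± 58.7 CPM in control libraries (log2 -4.15, adjusted p = 4.55e-07). Coding regions of Slc25a44, a branched-chain amino acid carrier (chr3:88420841-88420910, log2 -5.15), and Slc25a39 (chr11:102406197-102406266, log2 -6.08) were close to 0 in KO libraries, at 0.430 ± 0.497 and 0.207 ± 0.415 CPM. In Slc38a3, which carries glutamine, 6 of 10 tested regions were lower and none higher, and none of the 6 had a miR-122 match or a 7mer or 8mer of another family. The gene held 132, 236, 131 and 162 CPM in KO libraries, against 372, 541, 345, 356 and 286 CPM in control libraries (log2 -1.14, SE 0.25, adjusted p = 0.00315).

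The counts by role stand against 23.3% of all genes tested lower and 21.9% higher, with a median of 0.07. Roles were assigned by the family in the gene name alone. A name that is not a transporter was thus counted with its family, and Slc8b1 fell among the remaining carriers. The mitochondrial carriers were 28 of the tested genes, and 11 were lower, 3 higher and 14 not past the test, with a median log2 fold of -0.45; 5 were higher without KO library 1 and 1 without control library 5. Beside Slc25a47, Slc25a39, Slc25a3, Slc25a20 and Slc25a34, the lower ones included Slc25a45 (7.43 ± 2.00 CPM in KO, 80.8 ± 21.1 CPM in control, log2 -3.40, adjusted p = 1.12e-05) and Slc25a29, a carrier of basic amino acids (2.00 ± 0.801 and 16.4 ± 1.15 CPM, log2 -2.99, adjusted p = 0.000152). Slc25a47 held 62.4, 131, 63.8 and 52.7 CPM in KO libraries, against 736, 645, 693, 419 and 305 CPM in control libraries (log2 -2.57, SE 0.34, adjusted p = 9.62e-05), and it was lower without its miR-122 region too (log2 -2.17). Summed over the 36 carriers with reads, the level was 2749, 3360, 3018 and 3408 CPM in KO libraries, against 4865, 5848, 4624, 4408 and 3995 CPM in control libraries. These sums did not overlap, and carriers took 21.0% ± 1.34 of Slc reads in KO and 28.1% ± 2.57 in control libraries.

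The carrier with the most reads, Slc25a13 or citrin, which passes aspartate to the cytosol for the urea cycle, did not pass the test. It held 1128, 1250, 1017 and 1149 CPM in KO libraries, against 1408, 2051, 1221, 1482 and 1384 CPM in control libraries, with overlap (log2 -0.36, SE 0.20, adjusted p = 0.154). Most of these reads lay in 1 region of the 3′ UTR with a let-7 match (chr6:6042143-6042212), at 859, 958, 826 and 943 CPM in KO libraries and 1058, 1484, 867, 1136 and 1041 CPM in control libraries (log2 -0.26, SE 0.24, adjusted p = 0.411). Over its 10 tested regions 4 were lower, among them an intronic 8mer of miR-122 (0.669 ± 1.34 CPM in KO, 17.3 ± 2.49 CPM in control, log2 -4.26, adjusted p = 0.000108). The ornithine carrier Slc25a15 did not pass either (190.1 ± 51.4 and 239.6 ± 60.9 CPM, log2 -0.32, adjusted p = 0.316).

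Amino acid and peptide transporters were 4 lower and 10 higher of 29 tested, with a median of 0.34, against 23.3% and 21.9% of all genes. Of the higher ones, Slc6a17, Slc7a14 and Slc1a3 were tested through their KO reads, so their direction was fixed by the filter. The list took 31.9% ± 2.92 of Slc reads in KO against 25.8% ± 1.17 in control libraries. Its summed level overlapped, at 3852, 5139, 4251 and 6041 CPM in KO libraries and 4058, 4581, 4683, 4372 and 3971 CPM in control libraries. Slc38a4 held 817, 1301, 1034 and 1084 CPM in KO libraries, against 1194, 1319, 1400, 1633 and 1516 CPM in control libraries (log2 -0.53, SE 0.17, adjusted p = 0.0217). Its groups overlapped, and the call was lost without KO library 1 or 3 or control library 4 (adjusted p = 0.101, 0.0522 and 0.0598), with upper-quartile scaling (0.0678) and without the sex term (0.0967). Of its 18 tested regions 4 were lower, and its highest region outside miR-122 matches, a let-7 match in coding sequence (chr15:97010127-97010196), held 268 ± 89.9 CPM in KO and 194 ± 54.7 CPM in control libraries (log2 0.32, adjusted p = 0.34).

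Slc38a2, a neutral amino acid transporter of the same family, was higher. It held 740.5, 1081, 839 and 779 CPM in KO libraries, against 661, 486, 687, 416 and 370.5 CPM in control libraries (log2 0.87, SE 0.23, adjusted p = 0.00823). All KO libraries lay above all control libraries, and 6 of its 13 tested regions were higher and none lower. The strongest of these by level (chr15:96688478-96688547, 3′ UTR, with matches of miR-194 and miR-23) held 379, 481, 377 and 256 CPM in KO libraries, against 291, 225, 314, 157 and 123 CPM in control libraries (log2 1.09, SE 0.30, adjusted p = 0.00633). As a gene it no longer passed without control library 4 (adjusted p = 0.0581) or 5 (0.0516), with TMM factors from genes without a miR-122 region (0.0743), or over 3′ UTR regions alone (0.0782). Slc43a2, which exports branched-chain amino acids, held 132, 126, 124 and 182 CPM in KO libraries, against 68.4, 60.4, 78.4, 60.8 and 45.4 CPM in control libraries (log2 1.23, SE 0.21, adjusted p = 0.000555), also with no overlap. Slc7a2 did not differ past the test (469 ± 145 and 474 ± 109 CPM, log2 -0.04, adjusted p = 0.916).

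Sugar transporters were 3 lower and 1 higher of 9. The urate and sugar transporter Slc2a9 held 8.02, 11.6, 4.97 and 1.95 CPM in KO libraries, against 59.9, 74.9, 59.2, 62.5 and 54.2 CPM in control libraries (log2 -3.02, SE 0.34, adjusted p = 3.3e-05), and 77.5% of its control reads lay in miR-122 regions. Slc2a2 (GLUT2), the main glucose transporter of hepatocytes, had a smaller fold: 144, 129, 92.0 and 99.6 CPM in KO libraries, against 194, 251, 209.9, 187 and 114 CPM in control libraries, with overlap (log2 -0.52, SE 0.20, adjusted p = 0.0481). That call was lost without KO library 1 or 3 or control library 2, 3 or 4 (adjusted p from 0.068 to 0.259) and under most other settings; 2 intronic miR-122 regions held 33.0% of its control reads. Slc45a4, the higher one, held 71.0 ± 7.43 CPM in KO and 40.9 ± 6.97 CPM in control libraries (log2 0.75, adjusted p = 0.00968). It lost the call without KO library 1 (adjusted p = 0.0631) and with the TMM factors from genes without a miR-122 region (0.11). Without control library 4, 1 sugar transporter was lower, and without KO library 1 none was higher.

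Organic anion and cation transporters were 5 lower and 2 higher of 19 (median -0.57). Slc22a17 was among the higher ones and was tested through its KO reads. Without KO library 4, 8 were lower. Slc17a3 held 94.5, 57.1, 60.5 and 50.8 CPM in KO libraries, against 195, 172, 194, 303 and 321 CPM in control libraries (log2 -1.84, SE 0.26, adjusted p = 0.000145). Slc10a5 held 93.6, 27.7, 43.1 and 39.1 CPM in KO libraries, against 181, 222, 158, 147 and 146 CPM in control libraries (log2 -1.55, SE 0.24, adjusted p = 0.000279). Both had KO libraries wholly below the controls, and both had over 50% of control reads in miR-122 regions, as did 16 of the 37 lower Slc genes. That count was not made for the other Slc genes or for all genes. Slc22a5, which imports carnitine and was chosen after its values were seen, held 2.39 ± 1.93 CPM in KO and 22.1 ± 7.04 CPM in control libraries (log2 -2.72, adjusted p = 0.000541). Slc22a27, Slc22a28 and Slc22a30 are near copies of each other on chromosome 19, so their counts are uncertain; none passed. The fatty acid transport protein Slc27a2, which also activates very-long-chain fatty acids, held 126, 226, 215 and 172 CPM in KO libraries, against 507, 607, 462, 366 and 360.2 CPM in control libraries (log2 -1.25, SE 0.25, adjusted p = 0.00145). It was the 1 tested gene of its list, with 5 of 8 tested regions lower.

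Metal transporters were 5 lower and 2 higher of 21 (median -0.45); without control library 5, 3 were lower, 4 were higher without KO library 4, and 1 without KO library 1 or 2 or control library 1, 4 or 5. Beside Slc30a9 and Slc30a4, the copper importer Slc31a1 held 76.6, 70.5, 53.1 and 46.9 CPM in KO libraries, against 221, 196, 236, 178 and 206 CPM in control libraries (log2 -1.63, SE 0.18, adjusted p = 2.38e-05), and was also lower without its miR-122 regions (log2 -0.98, adjusted p = 0.00792). The zinc importer Slc39a10, which passed the filter through its KO reads, had 65.0, 68.7, 87.9 and 320.3 CPM in KO libraries against 11.4, 4.83, 7.84, 9.16 and 4.39 CPM in control libraries (log2 3.80). KO library 4 was far above the other KO libraries, and without it the log2 fold was 3.18. Nucleotide sugar transporters were 2 lower and 2 higher of 16 (median 0.03), and 1 was higher without KO library 1 or control library 4. Slc35d1, which brings UDP-sugars into the endoplasmic reticulum, had most of its reads in 1 coding region with a miR-30 match (chr4:103211310-103211379), at 447, 298, 320.0 and 217 CPM in KO libraries and 285, 358, 289, 271 and 321 CPM in control libraries; the groups overlapped (log2 0.21, SE 0.23, adjusted p = 0.485).

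Monocarboxylate and dicarboxylate transporters were 1 lower and 2 higher of 8. The creatine transporter Slc16a12, with no miR-122 region, held 397, 261, 279 and 273 CPM in KO libraries, against 218, 181, 268, 195 and 151 CPM in control libraries (log2 0.73, SE 0.17, adjusted p = 0.0033). The groups overlapped, and the call was lost with TMM factors from genes without a miR-122 region (adjusted p = 0.0675). Without control library 4 no gene of this list was lower, and 1 was higher without it or without KO library 1.

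Inorganic ion and proton transporters were 1 lower and 7 higher of 17 (median 0.43). Of the higher ones, Slc4a10 and Slc4a8 were tested through their KO reads, so their direction was fixed by the filter. Without KO library 3 or control library 1 or 4, none was lower. The bicarbonate cotransporter Slc4a4 did not pass as a gene (262 ± 60.5 and 211 ± 65.3 CPM, log2 0.43, adjusted p = 0.212). It held both kinds of region. An intronic 7mer-A1 and a coding 7mer-m8 of miR-122 were lower (log2 -5.21 and -4.11). A 3′ UTR region without a match was higher, though the groups overlapped (84.3 ± 36.5 and 28.3 ± 26.4 CPM, log2 2.24, adjusted p = 0.00381). Among its other regions without a match, a coding region was lower (log2 -2.02, adjusted p = 0.000944) and a 3′ UTR region was higher. Of the 14 remaining carriers tested, 4 were lower and 1 higher (Slc32a1, tested only through KO reads, and with too few to be tested without KO library 2 or 3 or control library 3 or 4); the thiamine transporter Slc19a2 held 358 ± 70.2 CPM in KO and 384 ± 55.1 CPM in control libraries (log2 0.03, adjusted p = 0.898).

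**Figure D4:**
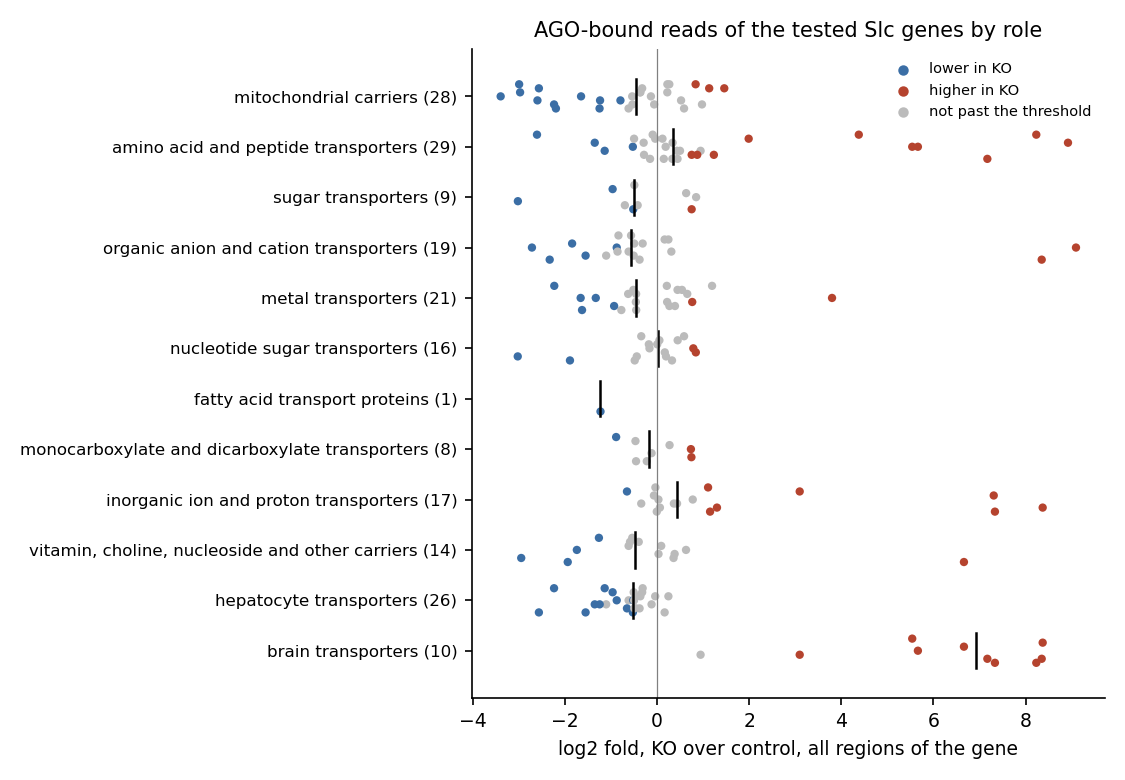
Log2 fold (KO over control, all regions of a gene) of the 162 tested Slc genes, 1 row of points per role. Blue points passed the test as lower in KO, red as higher, grey did not pass, and the black line is the median of the row. The mitochondrial carriers have 11 blue and 3 red points, the amino acid and peptide transporters 4 and 10. Some red points, Slc6a17, Slc7a14 and Slc4a10 among them, were tested through their KO reads, so their direction was fixed by the filter.

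A list of 30 transporters known from hepatocytes had 29 with reads. Of 26 tested, 11 were lower and none higher, with a median of -0.51, against 23.3% and 21.9% of all genes and a median of 0.07. Their summed level was 3952, 5211, 4023 and 4293 CPM in KO libraries, against 6523, 8029, 6658, 6521 and 5951 CPM in control libraries, without overlap. Without KO library 1 or control library 4, 7 were lower. Hepatocyte markers outside the Slc genes were lower in sum in the same libraries, as given above.

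A list of 30 transporters known from brain had 24 with reads, which summed to 709, 814, 802 and 2821 CPM in KO libraries and 513, 517, 497, 423 and 312 CPM in control libraries. Every KO library lay above every control library, and KO library 4, which also had the most reads of neuron markers, stood apart from the other KO libraries. Slc1a2, described below, held most of this list's sum in every library, so the sum mainly followed that gene. It had 1596 CPM in KO library 4 and 492 to 542 CPM in the other KO libraries. Of the 30 higher Slc genes, 9 were on this list, and 8 had no control read, 6 of these on the list. Most of them were tested only because of their KO reads, so their direction was fixed by the filter, and they are described without a count in support. Slc4a10, a sodium-driven bicarbonate transporter, held 25.8, 37.5, 38.1 and 141 CPM in KO libraries and no control read, at least 83.7-fold higher. Slc6a17, a synaptic vesicle transporter of amino acids, held 24.9, 35.7, 32.3 and 123 CPM (at least 74.7-fold) and Slc32a1, the vesicular GABA transporter, 9.80, 11.6, 13.3 and 35.2 CPM (at least 24.1-fold) in KO libraries. The astrocyte glutamate transporter Slc1a3 held 10.7, 17.8, 14.1 and 60.6 CPM in KO libraries, and 1 control library had a read, at 1.43 CPM. Slc8a1, a sodium-calcium exchanger of the plasma membrane, held 35.6, 47.3, 42.3 and 199 CPM in KO libraries, against 1.43, 4.83, 6.97, 14.2 and 4.39 CPM in control libraries (log2 3.10, and 2.41 without KO library 4). It did not pass over exonic regions alone (adjusted p = 0.129).

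In 15 of the 30 higher genes, KO library 4 was above 2 times the mean of KO libraries 1 to 3. Of these 6 were not on the brain list: Slc4a8, Slc39a10, Slc22a17, Slc7a14, Slc36a4 and Slc38a1, of which the last pair is named after its values were seen. Slc4a8, a sodium-driven bicarbonate exchanger, held 33.0, 44.6, 44.8 and 195 CPM in KO libraries, and its only control read, 0.871 CPM in library 3, lay in a miR-122 region. Slc7a14 held 36.5, 47.3, 52.2 and 221 CPM in KO libraries and no control read (at least 123-fold higher). The other 15 higher genes, Slc38a2, Slc43a2 and Slc16a12 among them, had a ratio of 2 or less. Summed over all Slc genes, the ratio was 1.23. How many of all genes tested had a ratio above 2 was not counted.

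Slc1a2, a glutamate transporter of astrocytes that hepatocytes around the central vein also use, combined both patterns. As a gene it held 492, 542, 517 and 1596 CPM in KO libraries, against 432, 498, 455, 379 and 293 CPM in control libraries; the groups overlapped, and it did not pass (log2 0.94, SE 0.40, adjusted p = 0.0753). Of its 17 tested regions 7 were higher and 2 lower. A 3′ UTR region with a miR-27 match (chr2:102790653-102790722) held 97.1, 102, 140.1 and 494 CPM in KO libraries, against 1.43, 2.42, 2.61, 2.50 and 2.93 CPM in control libraries (log2 6.03). With 1 to 3 reads in each control library it was tested through its KO reads, so these values are a description. The lower regions were an 8mer of miR-122 downstream of the gene (chr2:102778253-102778322; 1.60 ± 2.11 CPM in KO, 24.7 ± 5.30 CPM in control, log2 -3.74, adjusted p = 8.36e-05) and a coding "-B" region (chr2:102777481-102777550; 5.09 ± 3.69 and 54.8 ± 22.0 CPM, log2 -3.31, adjusted p = 2.85e-05). These lower regions had under 10 reads in every KO library and were tested through their control reads.

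**Figure D5:**
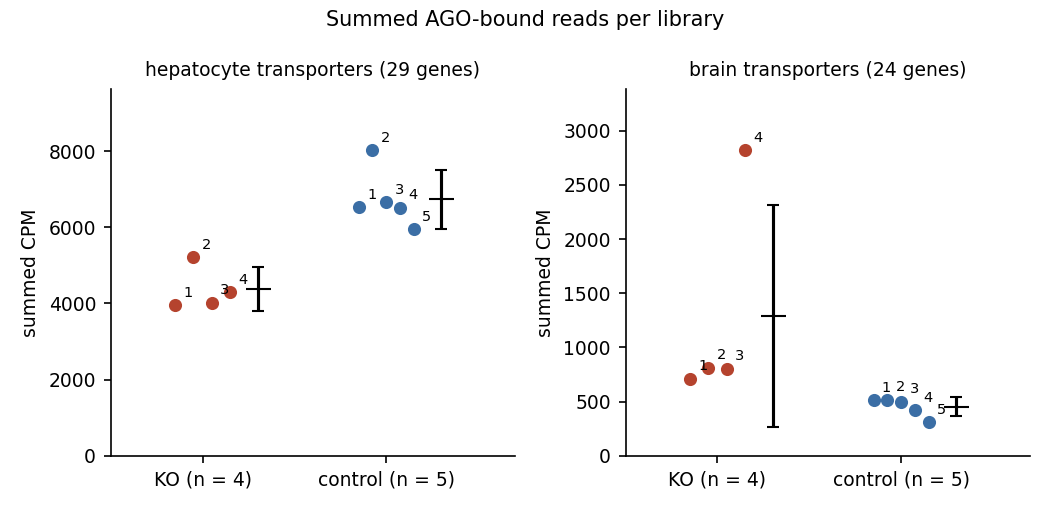
Summed AGO-bound reads (CPM) per library of 29 transporters known from hepatocytes (left) and 24 known from brain (right). Points are libraries, KO left of control, with the mean and SD of each group. Hepatocyte sums are 3952 to 5211 CPM in KO and 5951 to 8029 CPM in control libraries. Brain sums, mostly Slc1a2 in every library, are 709 to 2821 CPM in KO and 312 to 517 CPM in control libraries, with KO library 4 highest.

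Matches of other microRNA families were examined in the Slc regions without a miR-122 match, counting 7mers and 8mers. Regions with a let-7 match, 102 in 78 genes, took 20.3%, 20.7%, 20.8% and 17.9% of these reads in KO libraries, against 21.7%, 22.2%, 20.0%, 24.2% and 25.4% in control libraries, with overlap. Of 45 tested, 6 were lower and 3 higher (median -0.01); over all genes 8.02% and 17.3% of let-7 regions were (median 0.24). Regions with a miR-30 match were 0 lower and 4 higher of 28 tested (median 0.29), against 5.17% and 20.2% over all genes. Those with a miR-194 match were 1 lower and 5 higher of 10 (against 8.84% and 18.1%), those with a miR-27 match 1 and 2 of 7 (9.88% and 25.6%), and those with a miR-148 match 4 and 1 of 6 (23.9% and 8.71%). A region can match several families, and a few regions of 1 gene can fill such counts: 2 of the higher miR-194 regions lay in Slc38a2. Besides the Slc1a2 region, the higher miR-27 region lay in the 3′ UTR of Slc25a25, an ATP-magnesium carrier named after its values were seen (chr2:32416018-32416087; 62.4, 90.1, 118 and 85.9 CPM in KO libraries, against 31.4, 19.3, 34.8, 31.6 and 26.4 CPM in control libraries, log2 1.53, SE 0.29, adjusted p = 0.000336).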

How the data were processed

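The authors deposited 1 matrix of 143524 rows; a peak, called a region here, is repeated for each of its seed matches, and 92645 are unique. Values per library were read counts, not normalized, per the file headers; the deposited log2 fold is the authors' control over KO value and was used only for a check of sign (the same direction for 82.8% of the 338 Slc regions tested, after its sign was turned). The deposited phyloP score is the conservation of the seed match, per the file headers. Bowtie2 and mm10 were used, per the submitters' processing notes. Not given in the sources used here were versions, the peak caller, the treatment of duplicates and the counting rule, strand and near-identical copies included. Per the labels' protocols, frozen liver powder was crosslinked, partly digested with RNase and precipitated with an antibody to all AGO proteins.

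Here, counts were summed per gene, once over all regions and once without miR-122-5p regions, and tested by quasi-likelihood in edgeR 4.0.16 under R 4.3.3. Libraries were scaled with TMM, low rows were dropped by filterByExpr (minimum count 10), and the model held genotype and sex, fitted over all 9 libraries and all genes or regions. P-values were adjusted by the Benjamini-Hochberg method over each whole table, with a threshold of 0.05. The 11.0% of counts in regions without a gene entered the region test only. CPM are TMM-scaled. A fold against a group without reads is a lower bound against a floor of 3 reads over the group. Every adjusted p given for a gene or region is from edgeR's quasi-likelihood test. SEs were derived from its statistic. The test was run on simulated counts first. DESeq2 1.42.0 was an alternative; tables and plots used Python 3.11.15, pandas 2.3.3, numpy 2.4.6 and matplotlib 3.10.9. Libraries held 445912 to 1170130 reads.

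Genes were named by rule: the smallest p in each direction in both gene tests, the highest levels, the miR-122 regions with the smallest p or highest control level, the widest gaps between both gene tests, and, per role, the highest levels and the largest fold; the results of a few genes are not reported here. The members, the lists by role and the hepatocyte and brain lists were chosen with earlier results of these data known, so a list is described by its counts and median and given no test. Alternatives covered the scaling, the tool, the filter, the sex term, a replicate block, the site class and each library left out. Calls under them were counted for the Slc genes and regions only, so no share over all genes stands beside them.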

Additional observations from a re-analysis of the deposited data

Results flagged for a closer look

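Of 168 groups of values examined (55 named genes, shares and sums, in each genotype), 26 had a highest or lowest library far from the others by Dixon's test; chance gives about 1 in 20 groups. KO library 4 was the high one for Slc1a2 (1596 CPM, others 492 to 542), Slc1a3 (60.6), Slc22a17 (242), Slc23a2 (225, others 76.6 to 85.6), Slc32a1 (35.2), Slc39a10 (320.3), Slc43a2 (182), Slc4a10 (141), Slc4a8 (195), Slc6a17 (123), Slc7a14 (221) and Slc8a1 (199 CPM), and for the sum of brain transporters (2821 CPM, others 709 to 814). It also had the highest 3′ UTR share of Slc reads (65.2%, others 61.6% to 62.2%), and likewise outside miR-122 regions (65.4%).

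Other KO libraries stood out for Slc16a12 (397 CPM in library 1), Slc25a47 (131 CPM in library 2, others 52.7 to 63.8) and Slc45a4 (82.1 CPM in library 3). Among control libraries, a single library had the only reads of Slc1a3 (1.43 CPM, library 1) and Slc4a8 (0.871 CPM, library 3). Control library 5 had the lowest share of Slc reads among all reads (1.42%, others 1.66% to 1.74%) and outside miR-122 regions (1.45%). Control library 4 had the highest 3′ UTR share (53.4%, and 57.1% outside miR-122 regions) and the lowest coding share (36.1%), and control library 2 the lowest intron share (5.01%). The part of depth, sex or tissue makeup in these values was not tested.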

How the results depend on the processing

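Among the named genes and regions, 1868 values under the alternatives kept the direction and the side of the threshold, 108 kept the direction but no longer passed, 47 newly passed and 54 turned sign. Leaving out 1 library at a time gave 30 to 45 lower and 20 to 34 higher Slc genes over all regions, 19 to 39 and 14 to 22 without miR-122 regions, and 56 to 117 lower and 29 to 54 higher regions. The Mir122 fold was 14.0 to 23.3, and the miR-122 share of Slc reads 3.22% to 3.68% in KO and 17.9% to 18.5% in control libraries. Counting only 7mers and 8mers, the share was 1.79% in KO and 13.3% in control libraries.

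With TMM factors from genes without a miR-122 region, 59 Slc genes were lower and 18 higher, against 37 and 30. With the replicate block, 29 were lower and 21 higher, 19 were lower without miR-122 regions, and 28 regions were higher. It ended the calls of Slc2a2, Slc16a6, Slc16a12, Slc17a2, Slc37a4, Slc38a2, Slc38a4, Slc41a1 and Slc45a4 over all regions (adjusted p from 0.0767 to 0.218), and of Slc2a9, Slc6a8, Slc10a5, Slc12a7, Slc16a12, Slc17a3, Slc25a13, Slc31a1, Slc38a2 and Slc44a1 without miR-122 regions (0.0730 to 0.485). Same-numbered libraries did not deviate together (correlations -0.0335, -0.00262, -0.0903 and 0.0150). Such correlations cannot show whether mice of the same number were littermates or handled together, so a pairing by number was not settled. In the labels the mouse ids of numbers 1, 2 and 3 were consecutive between the genotypes, and those of number 4 were not. Without the filter on low counts, 36 genes were higher without miR-122 regions, and 205 regions were lower and 180 higher. DESeq2 called 36 lower and 30 higher.

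Folds that turned sign were mostly near 0. With the TMM factors from genes without a miR-122 region, log2 folds were -0.29 for Slc19a2, -0.15 for Slc22a23, -0.22 for Slc23a2 and -0.15 for Slc35d1, and without miR-122 regions -0.038 for Slc23a1. With upper-quartile scaling they were 0.0022 for Slc20a2 and 0.037 for Slc7a2. Without the sex term they were -0.074 for Slc19a2 and 0.012 for Slc7a2, and without miR-122 regions 0.095 for Slc16a6, -0.14 for Slc23a1 and 0.093 for Slc41a1. The block gave -0.18 for Slc19a2 and, without miR-122 regions, 0.52 for Slc41a1. Over 3′ UTR regions alone they were -0.31 for Slc19a2, 0.22 for Slc30a4, 0.76 for Slc30a9 and -0.26 for Slc35d1, and over exonic regions -0.038 for Slc23a2. Without miR-122 regions, Slc16a6 had 0.0065 by DESeq2 and 0.0029 with its size factors, and Slc23a1 had -0.0096 without the filter. Slc30a9 had -0.39 with only 7mer and 8mer regions left out, and Slc30a4 had 0.30 with "-B" regions left out too, a setting chosen after seeing the data. The cause was not tested.

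With 1 library left out, log2 folds over all regions ran from -0.22 to 0.030 for Slc16a10, -0.041 to 0.088 for Slc19a2, -0.17 to 0.078 for Slc20a2, -0.33 to 0.46 for Slc23a2, -0.11 to 0.33 for Slc35d1, -0.65 to 0.027 for Slc35d2 and -0.22 to 0.28 for Slc7a2. Without miR-122 regions they ran from -0.35 to 0.45 for Slc16a6, -0.012 to 0.23 for Slc22a23, -0.22 to 0.46 for Slc23a1, -0.58 to 0.25 for Slc23a2, -0.35 to 0.065 for Slc35d1, -0.53 to 0.57 for Slc41a1 and -0.27 to 0.24 for Slc7a2. Depth limits the rest: 68 Slc genes had too few reads to test, and a gene with 3 reads cannot be told from the floor. Sex is unbalanced between the genotypes, and only 1 KO mouse was female.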
